A study of Mus musculus with 2 samples.

Results

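The cornified envelope genes described here are 10 listed genes of the 19550 genes in the counts: Lor, Ivl, Sprr1a, Sprr3, Cnfn, Tgm1, Tgm3, Krtdap, Sbsn and Lgals7. They were chosen by name, and their levels were read in the squamous epithelial cells of the esophagus, the gastroesophageal squamo-columnar junction (GE-SCJ) and the stomach. The tissue came from wild type C57BL/6 mice of 4 stages, embryonic day 15 (E15), embryonic day 19 (E19), newborn pups of day 2 and adults of 8 weeks, and no animal carried a transgene or received a treatment. The design text gives 6 mice at E15, 2 at E19, 2 pups and 3 adults, and the mice of a region and stage were pooled under 1 CellPlex tag in a single 10x Genomics run. Of 7808 cells, 690 carried the authors' first squamous label and 40 a second squamous label, and the 2 labels were kept apart. Because each region and stage is 1 pooled sample without a mouse label, no difference below has a replicate check and no test was run. Levels are the summed unique molecular identifiers (UMIs) of a gene over the cells of a group, scaled to a total of 1000000 UMIs (CPM), with exact 95% Poisson intervals that cover counting error only.

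The cornified envelope is a sheath of cross-linked protein that replaces the plasma membrane of squamous cells as they leave the basal layer, flatten and die at the surface. Scaffold proteins such as involucrin are laid down first, loricrin and small proline-rich proteins are then joined to them, and transglutaminases form the bonds between glutamine and lysine residues. The rodent esophagus and forestomach are keratinized, so that these genes are active in the upper layers of the adult epithelium, whereas in the embryo the same tissue passes through a simple and then a non-keratinized stratified stage.

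Of the 10 genes, 4 lie together in the epidermal differentiation complex, the chromosomal cluster that holds most envelope precursors. In GRCm38 the span from Lor (chr3:92080271-92083142, minus strand) through Sprr3 (chr3:92456502-92458720, minus strand) and Sprr1a (chr3:92483952-92485895, minus strand) to Ivl (chr3:92570902-92573735, minus strand) measured 493.465 kb, and each of these genes had 2 exons. Sbsn (chr7:30751471-30756134, plus strand) and Krtdap (chr7:30787896-30791097, plus strand) were separated by 31.762 kb that holds Dmkn, and Cnfn (chr7:25367620-25369724, minus strand) and Lgals7 (chr7:28863853-28866284, plus strand) lay on the same chromosome. Tgm1 (chr14:55700009-55713926, minus strand) and Tgm3 (chr2:130012349-130050399, plus strand) lay elsewhere. Shown from RefSeq on GRCm38.p6 are the bases before the starts of the 7 genes that held either run of letters marked below. Each runs 5′ to 3′ on the gene's own strand up to the base before the RefSeq start, and capitals mark the letters TGANTCA, the core of sites bound by AP-1 proteins, and TATAAA, the TATA box.
Lor, chr3:92083143-92083242, minus strand: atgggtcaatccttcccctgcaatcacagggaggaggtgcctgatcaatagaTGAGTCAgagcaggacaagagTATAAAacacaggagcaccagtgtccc
Ivl, chr3:92573736-92573861, minus strand: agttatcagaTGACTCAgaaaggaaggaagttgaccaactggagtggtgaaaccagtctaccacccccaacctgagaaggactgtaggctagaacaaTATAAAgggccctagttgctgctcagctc
Sprr1a, chr3:92485882-92486037, minus strand: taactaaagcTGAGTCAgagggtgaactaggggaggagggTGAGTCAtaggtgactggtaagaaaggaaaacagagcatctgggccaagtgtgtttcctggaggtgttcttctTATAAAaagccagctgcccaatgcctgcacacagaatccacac
Sprr3, chr3:92458721-92458820, minus strand: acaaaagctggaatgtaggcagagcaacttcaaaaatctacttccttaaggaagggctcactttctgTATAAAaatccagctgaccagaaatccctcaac
Krtdap, chr7:30787805-30787904, plus strand: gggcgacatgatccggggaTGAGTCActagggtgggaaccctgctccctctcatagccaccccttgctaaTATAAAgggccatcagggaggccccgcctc
Sbsn, chr7:30751342-30751470, plus strand: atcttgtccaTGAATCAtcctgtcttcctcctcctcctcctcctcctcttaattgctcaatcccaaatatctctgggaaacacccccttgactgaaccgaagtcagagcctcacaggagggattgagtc
Tgm3, chr2:130012240-130012339, plus strand: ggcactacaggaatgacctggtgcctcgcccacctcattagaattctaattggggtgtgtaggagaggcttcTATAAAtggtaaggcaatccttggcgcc

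TGANTCA reads the same on both strands and was found within 250 bases before the start of 5 of the 10 genes, at 48 bases before the start in Lor, 116 in Ivl, 146 and 116 in Sprr1a, 81 in Krtdap and 119 in Sbsn. The share over all 32851 RefSeq promoters was 6.75%. TATAAA, searched on the transcribed direction within the last 50 bases, was found in 6 of the 10, at 27 bases in Lor, 29 in Ivl, 43 in Sprr1a, 33 in Sprr3, 30 in Krtdap and 28 in Tgm3, against 2.63% of all promoters. Cnfn, Tgm1 and Lgals7 held neither run of letters in these windows. Such matches describe the sequence and were not tied to any measurement of binding.

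The first squamous label was checked against its markers. Krt5, the keratin of basal squamous cells, was at 599 to 1718 CPM and Trp63, their defining transcription factor, had UMIs in every region and stage with at least 20 cells, which were, from E15 to adult, the esophagus with 64, 120, 56 and 232 cells and the GE-SCJ with 47, 30, 44 and 86. Krt14, also a basal keratin, was at 5.53 CPM in the E15 GE-SCJ, near the 5.05 CPM of immune cells. In the other groups of this label with at least 20 cells it was at 116 to 1480 CPM. The stomach gave 1, 3 and 7 cells of the first label before adulthood. The adult stomach is absent from these data, because the paper reports that none of its cells received a tag and left it out. The median depth was 8503.5 to 15924 UMIs per cell, and the median mitochondrial share was 1.89% to 4.54%. Markers of other cell types were present, with columnar markers summing to 984 to 5909 CPM before adulthood and erythroid markers reaching 4475 CPM in the E19 esophagus. In each group 1 to 11 cells held more UMIs of another class's markers than of the squamous ones. These were 11 of 47 cells in the E15 GE-SCJ and 8 of 30 in the E19 GE-SCJ, against 5 of 232 in the adult esophagus. The 354 immune cells of the same run, which should lack the envelope genes, served as the background level of free RNA.

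Together the 10 genes took up 4.13% of the UMIs of adult esophageal squamous cells and 4.39% of those of the adult GE-SCJ. Earlier, the esophagus gave 0.0504% at E15, 0.168% at E19 and 0.0554% in pups, and the GE-SCJ 0.0626%, 0.132% and 0.581% at the same stages. The immune cells gave 0.0220%. Both adult groups thus stood far above every earlier group of at least 20 cells of the first label, and the pup stage was low in the esophagus and intermediate in the GE-SCJ.

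Lor encodes loricrin, the main bulk protein of the mature epidermal envelope. It stood at 16.3 CPM (9.31 to 26.4) in the esophagus at E15, 20.5 (14.2 to 28.7) at E19, 14 (6.05 to 27.6) in pups and 4315 (4244 to 4388) in adults. In the GE-SCJ it was at 8.85 CPM (3.82 to 17.4) at E15, 8.51 (2.32 to 21.8) at E19, 12.2 (5.27 to 24.1) in pups and 2040 (1969 to 2112) in adults. The 6 earlier groups overlapped each other and the immune cells, at 12.5 CPM, so that in these 6 groups Lor was not detectable above background at this depth. A single cell of the pup stomach, given below, held 100 UMIs. Even in adults it came from few cells, since 5 of 232 esophageal cells held at least 50% of its UMIs and 2 of 86 did so in the GE-SCJ.

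Ivl encodes involucrin, an early scaffold of the envelope, and was the gene with the fewest UMIs. It had 0 UMIs in the esophagus at E15, E19 and in pups, which allows up to 3.05, 1.81 and 5.25 CPM at 3 counts. It had 0 UMIs in the GE-SCJ at E15 and E19, which allows up to 3.32 and 6.38 CPM. The adult esophagus gave 3.74 CPM (1.93 to 6.53) from 12 UMIs in 6 cells, the adult GE-SCJ 8.39 CPM (4.47 to 14.3) from 13 UMIs in 5 cells, and the pup GE-SCJ 4.58 CPM (0.944 to 13.4). The intervals of neighbouring groups overlapped throughout, and Ivl never reached the 50 UMIs over a pair of groups that the fold comparisons below required.

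Sprr1a and Sprr3 encode small proline-rich proteins, which bridge the other envelope proteins. Sprr1a was at 10.2 CPM (4.88 to 18.7), 180 (161 to 202), 10.5 (3.86 to 22.9) and 947 (914 to 981) in the esophagus at E15, E19, pup and adult, and at 71.9 (55.5 to 91.6), 476 (416 to 543), 201 (169 to 239) and 1046 (996 to 1099) in the GE-SCJ. Sprr3 was at 13.2 CPM (7.05 to 22.6), 88.7 (74.9 to 104), 7.01 (1.91 to 17.9) and 2290 (2237 to 2342) in the esophagus and at 11.1 (5.30 to 20.3), 155 (122 to 195), 156 (127 to 189) and 1530 (1470 to 1593) in the GE-SCJ. Both were thus already present at E19, far above the immune cells at 2.66 and 5.05 CPM, and both were low in the pup esophagus. The GE-SCJ values rested partly on single cells: 1 pup cell of 30549 UMIs held 106 of 132 Sprr1a, 99 of 102 Sprr3 and 158 of 167 Cnfn UMIs of its group, and without the top cell of each gene the pup GE-SCJ stood at 41.6 CPM of Sprr1a, 4.8 of Sprr3 and 14.4 of Cnfn. Leaving out the top cell moved Sprr1a to 43.9 CPM in the GE-SCJ at E15 and to 309 at E19.

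Cnfn encodes cornifelin, a small envelope-associated protein. In the first label it was at 17.3 CPM (10.1 to 27.7), 118 (102 to 135), 33.3 (20 to 52) and 4066 (3996 to 4136) in the esophagus at E15, E19, pup and adult. In the GE-SCJ it was at 6.64 CPM (2.44 to 14.4), 21.3 (10.2 to 39.1), 255 (218 to 297) and 2565 (2485 to 2646). The order from high to low was adult esophagus, adult GE-SCJ, pup GE-SCJ and E19 esophagus, and the other groups overlapped their neighbours. The pup GE-SCJ owed its place to the single cell named above, and 11 of the 19 UMIs of the pup esophagus came from 1 cell of 1265 UMIs. At E15, 1 esophageal cell of 1164 UMIs held 12 of the 17 Cnfn and 7 of the 13 Sprr3 UMIs, together with 21 of Krtdap, 4 of Tgm3 and 3 of Lor, so that 5.24% of its UMIs were of the 10 genes.

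Tgm1 and Tgm3 encode transglutaminases, the first bound to the membrane and the second made as a soluble precursor. Tgm1 had the narrowest range of the 9 genes other than Ivl, at 20.4 CPM (12.4 to 31.4), 87.5 (73.8 to 103), 26.3 (14.7 to 43.3) and 142 (129 to 155) in the esophagus and 57.5 (42.9 to 75.4), 76.6 (53.6 to 106), 62.6 (44.9 to 84.9) and 151 (132 to 172) in the GE-SCJ. The 2 adult groups overlapped, as did the 3 earlier GE-SCJ groups. Tgm3 was at 8.14 CPM (3.52 to 16), 122 (106 to 140), 42.0 (26.9 to 62.5) and 1375 (1335 to 1416) in the esophagus and at 5.53 (1.80 to 12.9), 12.8 (4.68 to 27.8), 6.1 (1.66 to 15.6) and 387 (356 to 419) in the GE-SCJ. It was lower in the GE-SCJ at each of the 4 stages, although the E15 intervals overlapped. All 24 Tgm3 UMIs of the pup esophagus came from 1 of 56 cells, without which the level was 0.

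Krtdap and Sbsn encode small secreted proteins of differentiating keratinocytes, and Lgals7 encodes galectin-7, a sugar-binding protein of stratified epithelia. Krtdap was at 242 CPM (212 to 275), 437 (406 to 470), 50.8 (34.0 to 73.0) and 15312 (15176 to 15448) in the esophagus and at 149 (125 to 177), 181 (144 to 224), 2078 (1969 to 2191) and 19461 (19242 to 19682) in the GE-SCJ. Sbsn was at 45.8 CPM (33.4 to 61.3), 226 (204 to 250), 42.0 (26.9 to 62.5) and 2895 (2837 to 2955) in the esophagus and at 35.4 (24.2 to 50), 57.4 (37.8 to 83.6), 93.1 (71.2 to 120) and 2174 (2101 to 2249) in the GE-SCJ. Lgals7 was at 130 CPM (109 to 155), 396 (367 to 428), 328 (282 to 378) and 9980 (9871 to 10090) in the esophagus and at 280 (246 to 316), 332 (282 to 388), 2937 (2807 to 3071) and 14552 (14362 to 14743) in the GE-SCJ. For Krtdap and Lgals7 the adult GE-SCJ stood highest, followed by the adult esophagus and then the pup GE-SCJ, with no overlap between them, whereas Sbsn was highest in the adult esophagus. The immune cells were at 76.8 CPM of Krtdap, 13 of Sbsn and 86.6 of Lgals7. In them 1 cell held 151 of the 289 Krtdap UMIs and 1 cell held 218 of the 326 Lgals7 UMIs. The Krtdap of the pup esophagus was thus not above a background that itself rested largely on 1 cell. Before adulthood 1 cell could set these levels: at E19, 1 of 120 esophageal cells held 308 Lgals7 and 291 Krtdap UMIs, 46.9% and 40.2% of the group, and without the top cell the levels were 216 and 268 CPM. In the GE-SCJ 1 cell held 85.8% of the Lgals7 UMIs at E15 and 91.7% at E19. Without it Lgals7 was at 41.2 and 28.8 CPM, below the level of the immune cells with their top cell kept.

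**Figure D1:**
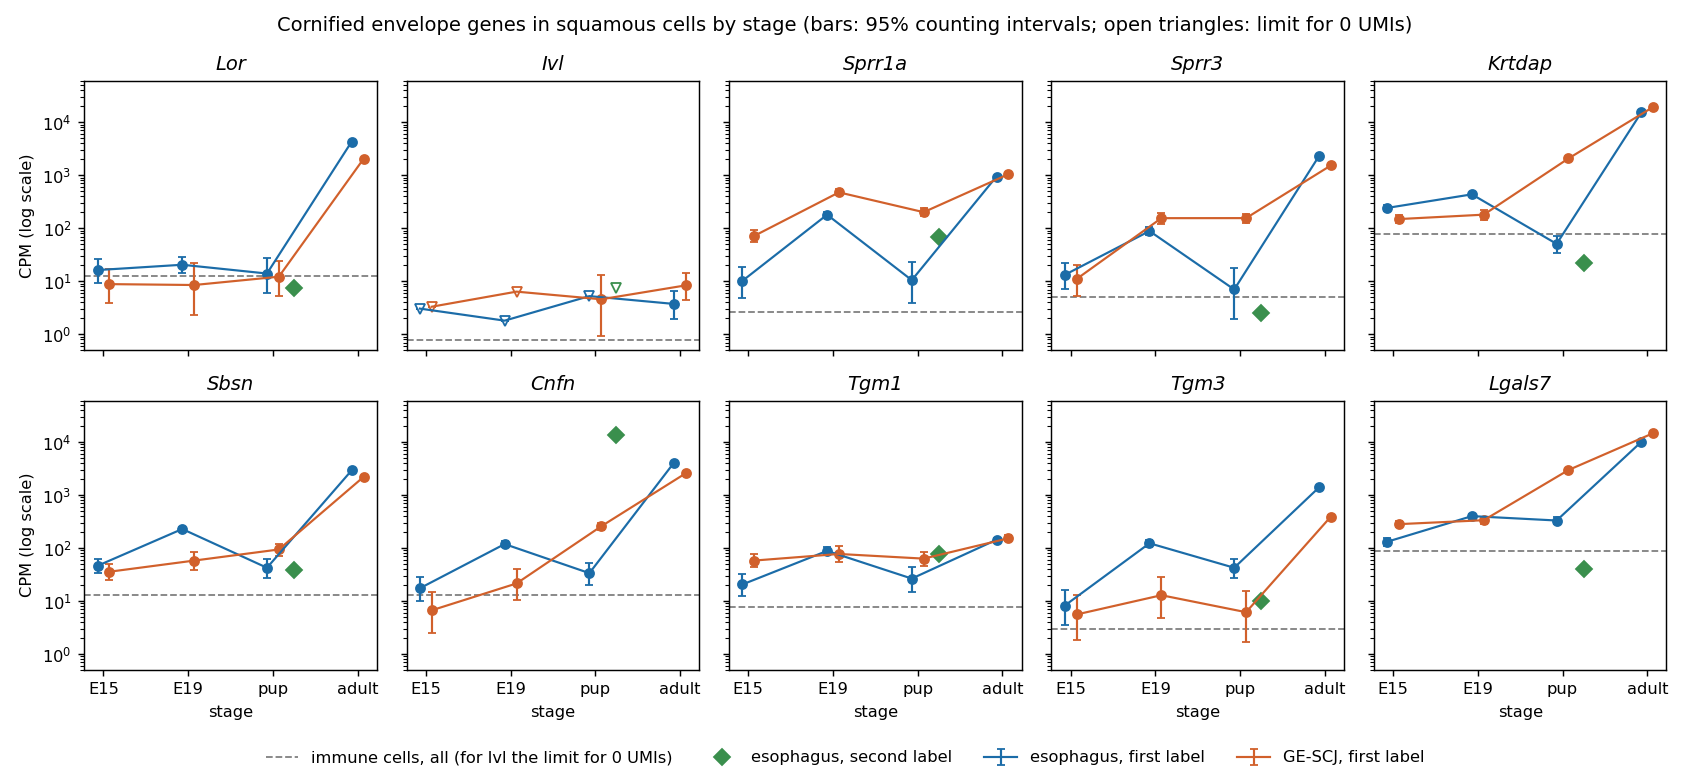
CPM (log scale) of each of the 10 genes against stage, with 1 panel per gene; lines join the esophagus and the GE-SCJ of the first squamous label, the diamond is the pup esophagus of the second label, bars are 95% counting intervals, open triangles stand at the limit that 0 UMIs allows and the dashed line is the level in immune cells. Both adult groups stand highest within the first label for every gene but Ivl, from 142 and 151 CPM of Tgm1 to 15312 and 19461 CPM of Krtdap, and the second label of the pup esophagus passes them only for Cnfn at 13517 CPM.

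The share of cells with a UMI was read after each cell was thinned to 5000 UMIs, which left out 61 of 232 adult esophageal cells and 19 of 86 adult GE-SCJ cells. Lgals7 was then found in 100% of adult esophageal cells and 98.5% of adult GE-SCJ cells, in 72.3% of pup esophageal cells and in 11.5% of immune cells. Lor was found in 29.2% of adult esophageal and 20.9% of adult GE-SCJ cells, and the immune cells gave 7.11%. Tgm3 was found in 63.2% of adult esophageal against 37.3% of adult GE-SCJ cells, and Krtdap in 51.5% against 89.6%. Galectin-7 was therefore an almost universal transcript of the adult squamous cells, loricrin one of a minority, and Tgm3 and Krtdap were found in unequal shares of cells in the 2 regions. Sprr1a was found in 42.3% of E19 GE-SCJ cells and 24% of E19 esophageal cells, and the immune cells gave 0.791%.

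The stages were then compared as log2 ratios of summed UMIs with 1 UMI added to each sum, and a gene with 50 or more UMIs across both groups counted as higher or lower from 4-fold on. From E15 to E19 in the esophagus, 0.973% of the 6580 genes that could be counted were higher and 0.182% lower. Of the 9 envelope genes counted, 6 were higher: Sprr1a by 4.02 (95% interval 3.16 to 5.03), Tgm3 by 3.74 (2.79 to 4.89), Cnfn by 2.69 (1.99 to 3.48), Sprr3 by 2.65 (1.86 to 3.55), Sbsn by 2.28 (1.83 to 2.75) and Tgm1 by 2.04 (1.38 to 2.78) on the log2 scale. Lgals7, Krtdap and Lor differed by 1.60, 0.85 and 0.29. The 6 higher genes had 8 to 45 UMIs at E15 and reached the minimum only with the E19 cells, so their count depends on the E19 level. The median log2 ratio was 2.28 over the 9 counted genes and 2.16 over all 10, in which the ratio of Ivl, at 0 UMIs in both groups, is set by the added UMI, and that over all genes counted was -0.25. The 3 counted keratins of the suprabasal layers, Krt13, Krt4 and Krt6a, were also higher. The mean of the single cells' CPM, in place of summed UMIs, left 2 of the 6 past 4-fold and turned Sprr3 and Cnfn to -0.43 and -0.86, a mean in which the shallow E15 cell named above carries the same weight as any other.

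From E19 to pup in the esophagus, 1.04% of 5554 genes were higher and 2.41% lower, and 4 of the 8 envelope genes counted were lower. These were Sprr1a with -3.88 (-5.21 to -2.82), Sprr3 with -3.35 (-4.99 to -2.10), Krtdap with -3.06 (-3.64 to -2.53) and Sbsn with -2.37 (-3.02 to -1.79). These 4 genes had 4 to 29 pup UMIs and were counted through the E19 cells. Cnfn, Tgm1 and Tgm3 had log2 ratios of -1.76, -1.65 and -1.48, and Lgals7 one of -0.27. The Lgals7 ratio rested on the 1 rich E19 cell named above. Without that cell E19 stood at 216 CPM, below the 328 CPM of pups. After thinning to 5000 UMIs, Lgals7 was found in 34% of E19 cells and 72.3% of pup cells. The median was -2.06 over the 8 counted and -1.70 over all 10, against -0.17 over all genes counted. The envelope partners Evpl, which encodes envoplakin, and Scel, which encodes sciellin, were lower too, with log2 ratios of -2.17 and -2.07, and were the only scaffold genes called of 10 counted. Of 13 differentiation regulators counted, 4 were lower, among them Zfp750 with -3.37 and Grhl3 with -2.66, and Klf4, at 890 against 123 CPM, was higher with 2.85. The basal genes did not move as one between these groups. The 11 basal adhesion genes summed to 2925 CPM in pups and 1204 CPM at E19, and the lowest pup cell held 341 CPM where the lowest E19 cell held 0, whereas the basal keratins Krt5 at 732 against 1130 CPM and Krt15 at 2887 against 5788 CPM were lower in pups and Krt14 at 406 against 171 was higher. The part of these differences in the lower pup levels was not tested.

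From pup to adult in the esophagus, 6.49% of 7129 genes were higher and 2.44% lower, and all 9 envelope genes counted were higher. The log2 ratios were 8.19 (7.67 to 8.75) for Krtdap, 8.10 (7.17 to 9.23) for Lor, 8.03 (6.81 to 9.65) for Sprr3, 6.86 (6.23 to 7.57) for Cnfn, 6.27 (5.23 to 7.59) for Sprr1a and 6.05 (5.48 to 6.68) for Sbsn. Tgm3, Lgals7 and Tgm1 followed with 4.97, 4.92 and 2.34. The median was 6.27 over the 9 counted and 6.16 over all 10, against -0.02 over all genes counted. Against E19, with 3.89% of 8198 genes higher and 2.4% lower, 8 of 9 were higher in adults, and Tgm1 was within 4-fold at 0.69 (0.42 to 0.97). Of these 9 only Lor, with 34 E19 UMIs, was counted through the adult cells.

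To bring the layers of adult and pup cells nearer to each other, the 58 adult esophageal cells highest in basal adhesion genes were compared with all 56 pup cells. The pup cells were not selected by layer. The basal adhesion genes summed to 3667 CPM in these adult cells and 2925 CPM in the pup cells. The background was 1.65% of 2482 genes higher and 2.54% lower. Lgals7 was at 6303 CPM in these adult cells and 328 CPM in pups, a log2 ratio of 4.26 (4.04 to 4.48), and had UMIs in 55 of the 58 cells. Tgm3 was at 193 and 42.0 CPM, a log2 ratio of 2.16 (1.48 to 2.89), with the pup UMIs in 1 cell as stated above. Krtdap was at 71.3 and 50.8 CPM, with an interval of -0.33 to 1.31 that includes no difference, and Lor was at 20.8 and 14 CPM. Only 3 of the 10 genes reached 50 UMIs here. In the GE-SCJ the same comparison, of 22 adult cells with 44 pup cells, gave Lgals7 at 7915 against 2937 CPM, a log2 ratio of 1.43 (1.33 to 1.53), and lower adult levels of Krtdap with -1.48 (-1.73 to -1.24), Sprr1a with -3.82, Sprr3 with -4.04 and Cnfn with -4.75, the last 3 being past 4-fold of 6 genes counted. The pup levels of Sprr1a, Sprr3 and Cnfn rested mostly on the 1 cell named above, and their adult levels on 2, 1 and 1 UMIs. Of the pup Krtdap UMIs, 68.1% lay in 4 cells rich in Krt1 and Krt10, described below. The other 40 pup cells were at 750 CPM of Krtdap, against 740 CPM in the 22 adult cells. The background there was 1.15% of 2166 genes higher and 2.45% lower. In the GE-SCJ the basal adhesion genes summed to 2727 CPM in the adult cells and 2098 CPM in the pup cells. Single pup cells ran from 0 to 6222 CPM. The part of unlike layers in the ratios of both regions was not tested.

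In the GE-SCJ the same steps looked different. From E15 to E19, 1.05% of 4015 genes were higher and 0.847% lower, and of the 6 envelope genes counted Sprr3 with 3.69 (2.77 to 4.76) and Sprr1a with 2.71 (2.31 to 3.13) were higher. Sprr3, with 10 UMIs at E15, was counted through the E19 cells. From E19 to pup, 1.67% of 2990 genes were higher and 1.67% lower, and of 7 counted Krtdap with 3.51 (3.19 to 3.84), Cnfn with 3.45 (2.58 to 4.48) and Lgals7 with 3.14 (2.90 to 3.38) were higher. The Cnfn value rested on the 1 pup cell, and was -0.26 without the top cell of each group. With 10 UMIs at E19, Cnfn was counted through the pup cells. The columnar markers summed to 5909 CPM in the 30 E19 cells and 2246 CPM in the 44 pup cells, and their part in these ratios was not tested. From pup to adult, 3.9% of 4868 genes were higher and 1.58% lower, and 8 of 9 envelope genes were higher, from Lor with 7.22 (6.29 to 8.35) and Tgm3 with 5.67 (4.44 to 7.29) to Lgals7 with 2.31 (2.24 to 2.38). Tgm1 was within 4-fold at 1.24 (0.76 to 1.75). Lor with 8, Tgm3 with 4 and Tgm1 with 41 pup UMIs were counted through the adult cells. Against E19, with 4.68% of 4681 genes higher and 3.05% lower, 7 of 9 were higher in adults, and Sprr1a with 1.13 and Tgm1 with 0.95 were within 4-fold. Lor, Tgm3, Cnfn, Sbsn and Tgm1, with 4 to 36 E19 UMIs, were counted through the adult cells.

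The pup GE-SCJ held a small set of cells that stood apart. In 4 of its 44 cells Krt1 and Krt10, the keratin pair of epidermal suprabasal cells, summed to 142 UMIs or more, whereas the other 40 cells had at most 20. These 4 cells held 68.1% of the Krtdap and 55.4% of the Lgals7 UMIs of the group, at 12066 and 13874 CPM against 750 and 1483 CPM in the others. Sbsn at 221 against 76.1 CPM and Tgm1 at 130 against 53.6 CPM were also higher in them, from 17 and 10 UMIs. They held 0 UMIs of Sprr3, 26.0 CPM of Sprr1a and 91.0 CPM of Cnfn. The others were at 176, 225 and 277 CPM of these 3 genes, mostly from 1 cell. The single pup cell rich in Sprr1a, Sprr3 and Cnfn was not among them, having 0 UMIs of Krt1, Krt10 and Lgals7 and 12 of Krtdap.

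The layers of the adult esophagus were read by ranking its 232 cells by the summed CPM of the basal adhesion genes, integrins, laminins and other anchors that hold basal cells to the basement membrane, and cutting them into 4 bins of 58. Krt5 ran from 3456 CPM in the highest bin to 91.9 in the lowest and Krt13 from 1633 to 51130. The lowest bin was also the deepest, with a median of 26976.5 UMIs per cell against 4730.5 in the highest. Lor was at 20.8, 21.4, 140 and 8940 CPM from the highest to the lowest bin, Cnfn at 14.8, 7.13, 129 and 8431, and Sprr3 at 5.94, 5.35, 72.1 and 4748. At least 99.1% of the UMIs of each of these 3 genes lay in the last bin. Sprr1a, at 17.8, 49.9, 56.7 and 1930 CPM, followed the same course.

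Krtdap began a bin earlier, at 71.3, 362, 2045 and 30836 CPM, and Sbsn ran with it at 35.6, 67.7, 448 and 5795. Tgm3 was at 193, 178, 715 and 2406 CPM, with 83.7% of its UMIs in the last bin, and Tgm1 at 47.5, 23.2, 79.8 and 237. Lgals7 was at 6303, 7181, 8577 and 12521 CPM, and 60% of its UMIs lay in the last bin. That bin held 1534761 of the 3209407 UMIs of all genes in the group, the base for these shares. The log2 ratio of the lowest to the highest bin was 9.06 (7.51 to 11.3) for Sprr3, 8.89 (7.76 to 10.3) for Cnfn, 8.70 (8.14 to 9.33) for Krtdap and 8.56 (7.58 to 9.77) for Lor, and it was 3.62 (3.27 to 3.99) for Tgm3, 2.24 (1.54 to 3.03) for Tgm1 and 0.99 (0.92 to 1.05) for Lgals7. As a share of all UMIs the 10 genes took up 0.671%, 0.790%, 1.23% and 7.59% of the bins. Galectin-7 thus had the smallest difference along the ranking in the adult esophagus.

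In the adult GE-SCJ, whose 86 cells were cut the same way into bins of 22, 22, 21 and 21, the order was partly different. Krtdap was at 740, 4919, 21190 and 30524 CPM, with 60.9% of its UMIs in the last bin, and Sbsn at 57.3, 255, 1939 and 3890 CPM, with 69.5%. The last bin held 601620 of the 1549175 UMIs of all genes in this group. Lor was at 9.55, 32.4, 325 and 4970 CPM, Cnfn at 4.78, 28.4, 643 and 6065, and Lgals7 at 7915, 10642, 15059 and 18050. The log2 ratio of the lowest to the highest bin was 9.31 (7.46 to 12.4) for Cnfn, 8.44 (6.89 to 10.7) for Lor, 6.36 (4.50 to 9.41) for Tgm3, 5.97 (5.19 to 6.88) for Sbsn, 5.36 (5.13 to 5.59) for Krtdap and 1.19 (1.11 to 1.26) for Lgals7. Lor and Cnfn had wide ranges and Lgals7 the smallest in both regions, while the place of Tgm3 against Krtdap and Sbsn differed between them.

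**Figure D2:**
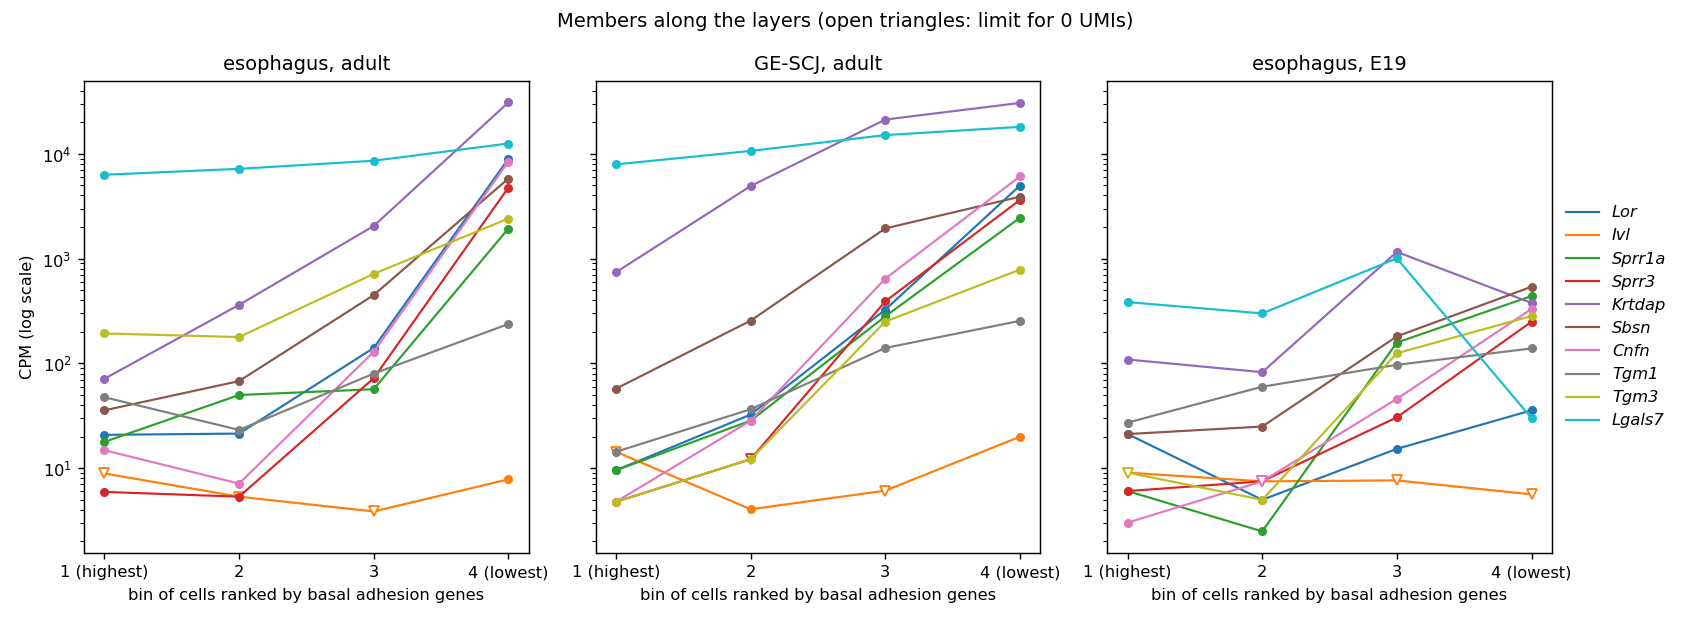
CPM (log scale) of the 10 genes in 4 bins of cells ranked from highest to lowest basal adhesion genes, in panels for the adult esophagus, the adult GE-SCJ and the E19 esophagus; each line is a gene and open triangles stand at the limit that 0 UMIs allows. In the adult esophagus Lor goes from 20.8 to 8940 CPM between the highest and the lowest bin and Lgals7 from 6303 to 12521.

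At E19 the same ranking of 120 esophageal cells showed part of this order. Sprr1a was at 6.05, 2.50, 158 and 439 CPM, Sprr3 at 6.05, 0, 30.6 and 249, Cnfn at 3.02, 0, 45.9 and 330, Sbsn at 21.2, 25.0, 181 and 538, and Tgm3 at 0, 4.99, 125 and 283. Krt13 ran with them from 517 to 19086 CPM. Lor had no such course, with 21.2, 4.99, 15.3 and 35.6 CPM, and Lgals7 ran the other way, at 384, 300, 1004 and 30.0 CPM, with the single rich cell in bin 3, a direction that turned in both alternatives, with log2 ratios of the lowest to the highest bin of 0.46 with thinned cells and 2.71 with the keratin ranking that follows. E19 cells low in basal adhesion genes thus held more Sprr1a, Sprr3, Cnfn, Sbsn and Tgm3 and little Lor. Ranked instead by the basal keratins Krt5, Krt14 and Krt15, the E19 cells gave the opposite order, with log2 ratios of the lowest to the highest bin of -2.34 for Sprr1a, -2.75 for Sprr3, -0.82 for Sbsn, -3.97 for Cnfn and -1.05 for Tgm3. The 2 rankings did not order the E19 cells alike. From the highest to the lowest keratin bin the basal adhesion genes summed to 978, 1152, 1609 and 1198 CPM. The pup esophagus showed little range, the 10 genes taking up 0.0417% to 0.0661% of the UMIs of its bins.

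The adult genes were also found in the same cells. Over 171 adult esophageal cells thinned to 5000 UMIs, Spearman's rho between pairs of the 9 genes other than Ivl ran from 0.16 to 0.86 over 36 pairs, with a median of 0.51. The highest were Krtdap with Sbsn at 0.86, Sprr3 with Cnfn at 0.79 and Krtdap with Tgm3 at 0.76. These cells share a library, a depth after thinning and the axis from basal to surface, and the values are a description. Cells with a Lor UMI (50) held Cnfn in 68%, Sprr3 in 60%, Tgm3 in 90% and Krtdap in 82%, and cells without one (121) held them in 9.92%, 4.96%, 52.1% and 38.8%. Of the 171 cells, 25 held at least 8 of the 10 genes and 89 held 3 or fewer.

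**Figure D3:**
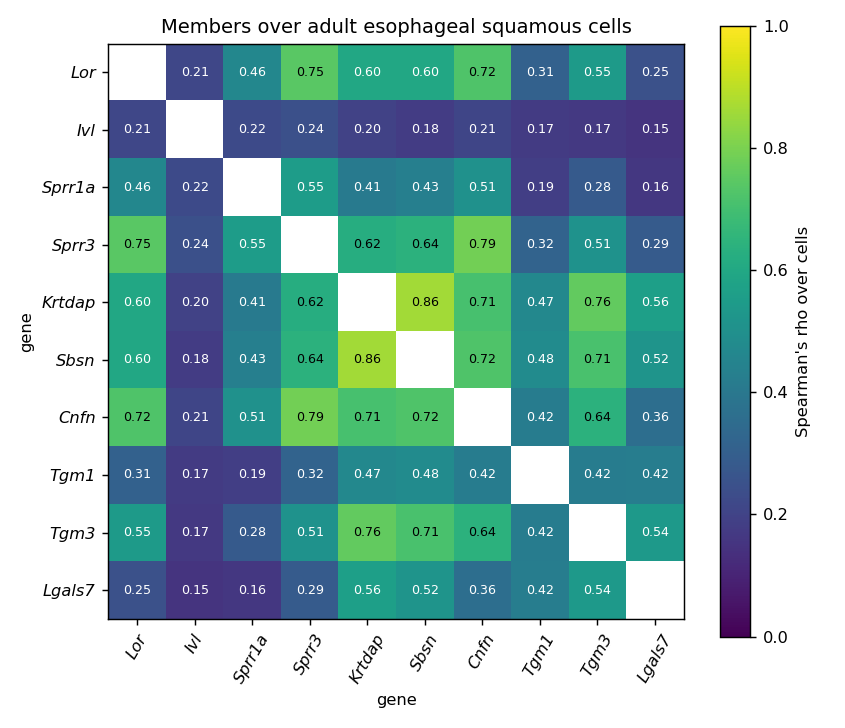
Spearman's rho between each pair of the 10 genes over 171 adult esophageal squamous cells thinned to 5000 UMIs, with the genes on both axes and rho as colour and number. Krtdap with Sbsn is the highest pair at 0.86, and the row of Ivl, with 12 UMIs in all before thinning, holds low values throughout.

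The regions were compared at each stage as GE-SCJ over esophagus. At E15, with 0.2% of 5499 genes higher and 0.818% lower, Sprr1a was the only one of 5 envelope genes counted that passed 4-fold, with a log2 ratio of 2.70 (1.77 to 3.78). Sprr1a had 10 UMIs in the E15 esophagus and was counted through the GE-SCJ cells. At E19, with 0.771% of 5446 genes higher and 1.43% lower, Tgm3 with -3.04 (-4.37 to -1.97) and Cnfn with -2.34 (-3.36 to -1.47) were lower among 8 counted, and Sprr1a and Sprr3 had ratios of 1.40 and 0.82. Tgm3 and Cnfn had 6 and 10 UMIs in the E19 GE-SCJ and were counted through the esophageal cells. In pups, with 1.44% of 3130 genes higher and 1.73% lower, 5 of 7 were higher: Krtdap with 5.31 (4.79 to 5.88), Sprr3 with 4.17 (2.90 to 5.82), Sprr1a with 4.05 (2.97 to 5.39), Lgals7 with 3.16 (2.94 to 3.38) and Cnfn with 2.87 (2.20 to 3.62). Of these 5 only Lgals7, with 187 UMIs in the pup esophagus, reached the minimum there. The others had 4 to 29 UMIs in it and were counted through the GE-SCJ cells. Sprr3 stood at -0.15 without the top cell of each group, and only 2 of the 5 were past 4-fold when the top 1% of cells for each gene was left out. In adults, with 0.391% of 7678 genes higher and 0.716% lower, none of the 9 counted passed 4-fold. Tgm3 came nearest with -1.83 (-1.95 to -1.70), then Lor with -1.08 (-1.14 to -1.02), while Lgals7 with 0.54 and Krtdap with 0.35 lay on the other side. The adult regions thus held these 9 genes within 4-fold of each other, as they did nearly all genes counted.

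Within bins 1 to 3 of the adult cells some genes differed more between the regions than over all cells, in an added comparison chosen after the data were seen. In the bin highest in basal genes, with 0.843% of 1423 genes higher and 0.773% lower in the GE-SCJ, Krtdap was at 740 CPM in 22 GE-SCJ cells and 71.3 CPM in 58 esophageal cells, a log2 ratio of 3.33 (2.71 to 4.00), and was found in 13 cells of each. Tgm3 was at 4.78 CPM from 1 UMI in the GE-SCJ and 193 CPM from 65 UMIs in 23 esophageal cells, a log2 ratio of -4.36 (-7.43 to -2.45). In bin 3 Krtdap stood at 21190 against 2045 CPM and Cnfn at 643 against 129 CPM. Sprr3, Sprr1a and Sbsn were past 4-fold there too, with log2 ratios of 2.42, 2.29 and 2.11. The share over all genes was not counted for bin 3. In the bin lowest in basal genes, with 0.666% of 4205 genes higher and 0.666% lower, Krtdap was level at 30524 and 30836 CPM, Tgm3 was at 785 and 2406 CPM and Lor at 4970 and 8940 CPM. The bins were cut within each region and were not alike: the basal adhesion genes summed to 2727 CPM in bin 1 of the GE-SCJ against 3667 in that of the esophagus and to 417 against 794 in bin 3, where the median depth was 22959 against 11437.5 UMIs, and the part of this in the differences was not tested. Tgm3 was lower in the GE-SCJ in each of the 4 bins.

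The second squamous label was high in Cnfn and low in most of the other 9 genes. Cnfn had UMIs in all 40 of its cells, from 24 to 806 with a median of 145, which is 2857 to 34612 CPM in single cells. The pup esophagus, with 29 of these cells, stood at 13517 CPM (13159 to 13881). Over all 40 cells there were only 4 UMIs of Lor, 20 of Lgals7 and 13 of Krtdap. Single cells of the first label also had high Cnfn with little Lor or Lgals7. The pup GE-SCJ cell of 30549 UMIs stood at 5172 CPM of Cnfn with 1 Lor and 0 Lgals7 UMIs. The pup esophageal cell of 1265 UMIs stood at 8696 CPM of Cnfn with 0 Lor and 1 Lgals7 UMIs. In the pup esophagus Sprr1a was at 67.2 CPM (44.3 to 97.8), Tgm1 at 77.2 (52.4 to 110), Sbsn at 37.3 (20.9 to 61.6), Lgals7 at 39.8 (22.8 to 64.7), Krtdap at 22.4 (10.2 to 42.5), Tgm3 at 9.96 (2.71 to 25.5), Lor at 7.47 (1.54 to 21.8), Sprr3 at 2.49 (0.0630 to 13.9) and Ivl at 0 UMIs, which allows 7.47 CPM. In the adult esophageal cells of the first label Cnfn and Lor mostly went together, with a rho of 0.72 over the 171 thinned cells. Of the 46 thinned cells with a Cnfn UMI, 34 also had one of Lor. Before thinning, 1 adult cell at 4608 CPM of Cnfn had 0 of Lor and 15553 CPM of Lgals7.

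Against the 56 pup esophageal cells of the first label, 14% of 2269 genes were higher and 30.6% lower in the second, so that the labels, which were made from these same counts, differed widely. Cnfn was higher by a log2 ratio of 8.59 (7.96 to 9.30) and Lgals7 lower with -2.96 (-3.77 to -2.24), and the other 8 genes had too few UMIs to be counted. Cnfn had 19 UMIs in the first label and Lgals7 16 in the second, so each was counted through its higher group. Krt5 was found in 5 of the 40 cells and Trp63 had 0 UMIs in the pup esophagus, so these defining markers of basal cells were at or near 0, whereas Krt15, also a basal keratin, was at 1449 CPM against 2887, and Krt13 was at 6915 CPM against 1456. Among the envelope partners Csta1, a cystatin, was higher at 625 against 12.3 CPM in 24 of 29 cells, Ppl, which encodes periplakin, at 792 against 87.6 and Evpl at 222 against 47.3, whereas the desmosome genes Dsp at 77.2 against 434 and Pkp1 at 12.4 against 243 were lower. Asprv1, a protease that processes filaggrin, was at 3273 against 21.0 CPM, and the regulators Hopx and Elf3 were at 3221 against 64.8 and 1297 against 91.1. Columnar markers summed to 3458 CPM against 984 and mesothelial markers to 1006 CPM from 2 of 4 genes, and their part in this profile was not tested.

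Outside the pup esophagus the second label was scarce. At E19 it had 3 cells in the esophagus, 4 in the GE-SCJ and 1 in the stomach, and the GE-SCJ had 2 in pups and 1 in adults. The 3 esophageal cells of E19 held 353, 92 and 364 Cnfn UMIs and 13, 302 and 495 Sprr1a UMIs, and the 4 GE-SCJ cells of E19 held 117, 24, 133 and 174 of Cnfn and 21, 133, 0 and 232 of Sprr1a. The richest of these E19 cells thus held far more Sprr1a than the pup esophageal cells of the same label, among which the richest had 12 UMIs. Among the 7 squamous cells of the pup stomach, 1 cell of 30118 UMIs held 100 Lor, 86 Sprr3, 208 Cnfn, 52 Tgm3, 155 Sbsn, 690 Krtdap and 303 Lgals7 UMIs with 848 of Krt13 and 0 of Krt5. No other cell of that group had a Lor or Sprr3 UMI.

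**Figure D4:**
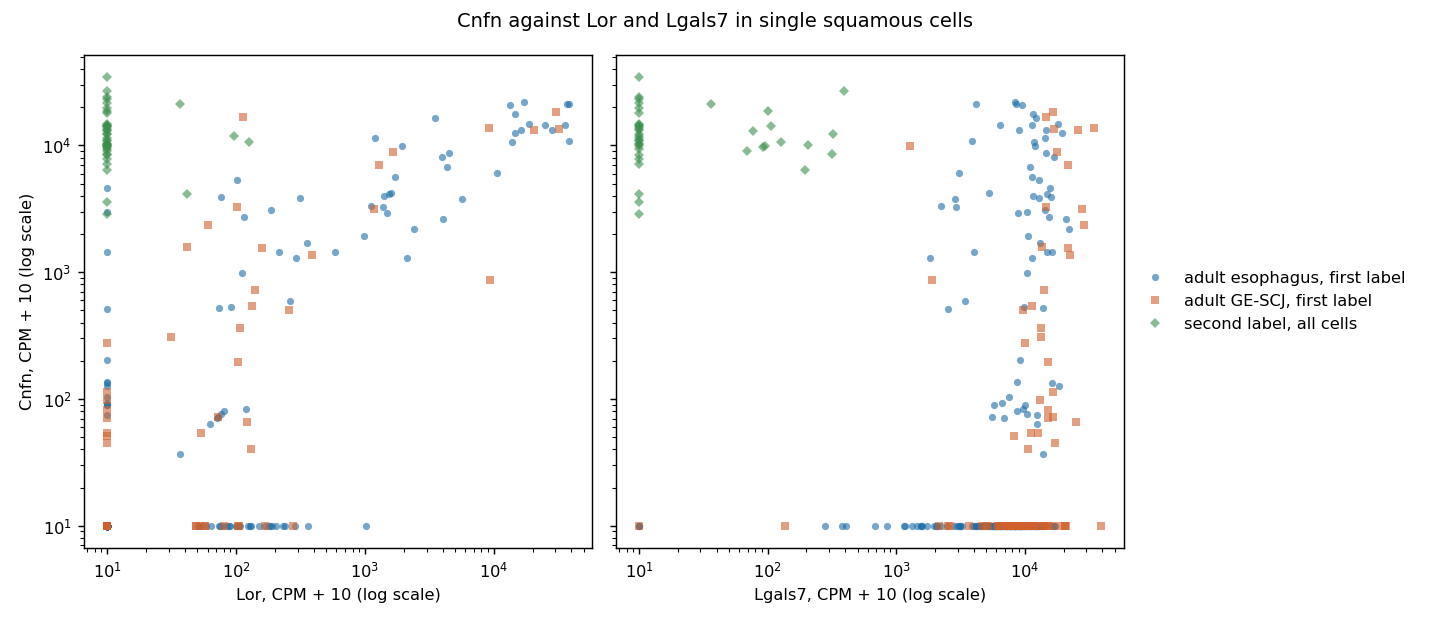
Cnfn against Lor (left) and against Lgals7 (right) in single cells, each as CPM plus 10 on log axes; circles are the adult esophagus, squares the adult GE-SCJ and diamonds all 40 cells of the second label. The second label lies between 2857 and 34612 CPM of Cnfn with little Lor or Lgals7, whereas adult cells high in Cnfn are also high in Lgals7.

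The other genes of the envelope were counted by list in the same way. Between E19 and adult in the esophagus, 5 of 5 late cornified envelope genes were higher, with Lce3f at 875 CPM against 0 UMIs, at least 483-fold higher by the limit of 3 counts. Crct1, a cysteine-rich envelope gene, was at 2905 against 10.3 CPM and Rptn, which encodes repetin, at 637 against 2.41. Of the other small proline-rich genes 3 of 3 counted were higher. Of the barrier lipid genes 10 of 14 were higher, among them Elovl4 at 365 against 1.21 CPM and Alox12b at 212 against 12.1. Sprr1b and Sprr2k, at 0 CPM at E19, and genes near 0 there such as Rptn and Elovl4 were likewise counted through the adult cells. Of the 8 counted envelope proteases 6 were higher and Ctsl was lower. Of 14 scaffold genes 4 were higher and Anxa1, which encodes annexin A1, was lower at 349 against 2204 CPM. None of 15 differentiation regulators passed 4-fold. The background was 3.89% higher and 2.4% lower, as given above.

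Late envelope genes sat in few cells. Only 22 of 232 adult esophageal cells had a UMI of the 5 Lce3 genes, and 11 cells with at least 10 held 99.4% of the 7420 UMIs together with 72.5% of the Lor UMIs. One cell held 3001 of those UMIs. The adult GE-SCJ had 42 Lce3 UMIs, so that these genes were counted mostly through the esophagus. All 5 Lce3 genes were lower in the GE-SCJ, beside 0.391% of all counted genes higher and 0.716% lower. Crct1 at 622 against 2905 CPM and Rptn at 115 against 637 were lower there too. Krt1 at 1970 against 16.5 CPM, Krt10 at 2264 against 38.3, Anxa1 at 1451 against 349 and Sprr2a3 at 803 against 93.2 were higher in the GE-SCJ. Sprr2a3 has near-identical copies, and its reads may be divided among them. Of the 14 lipid genes none passed 4-fold between the regions. The 9 counted envelope genes of the list lay within 4-fold between the adult regions, as did nearly all counted genes, whereas the Lce3 genes and the Krt1 and Krt10 pair did not.

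**Figure D5:**
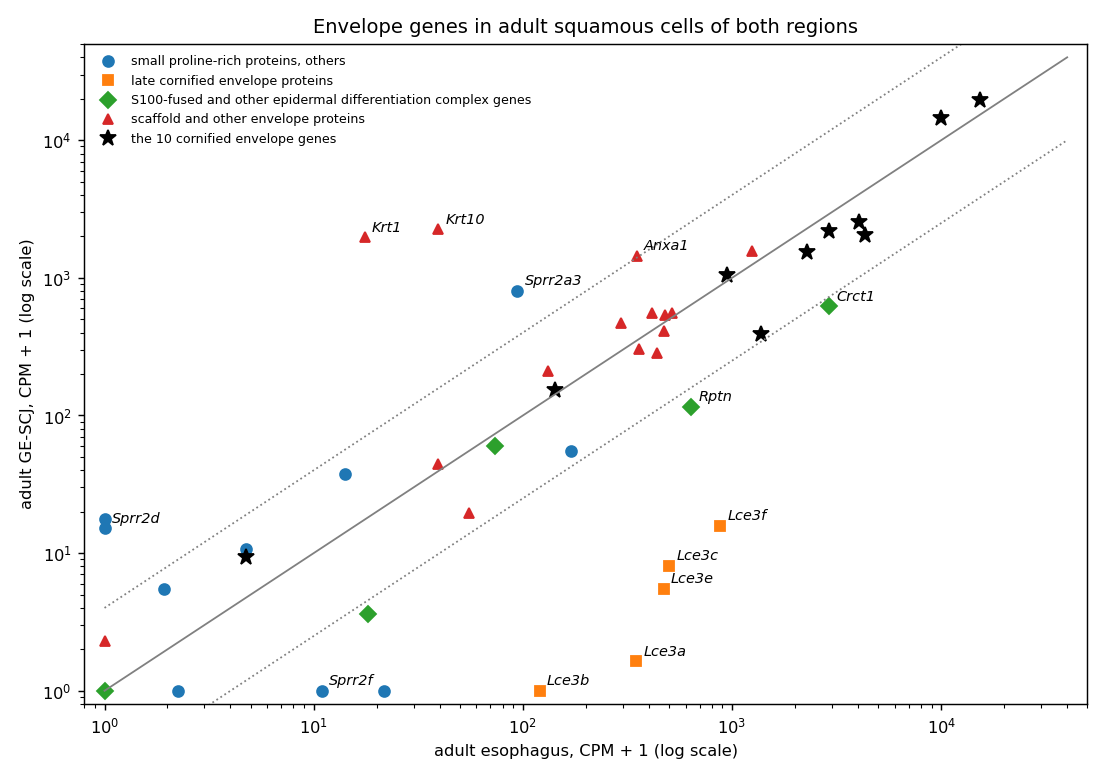
CPM plus 1 in the adult GE-SCJ against the adult esophagus on log axes, for the 10 cornified envelope genes (stars) and the other envelope genes by list; the solid line is equality and the dotted lines are 4-fold. The stars lie between the dotted lines, from Tgm3 at 387 against 1375 CPM to Ivl at 8.39 against 3.74, while the 5 Lce3 genes lie below and Krt1 and Krt10 above.

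The genes whose pattern was most like that of the 10 were sought by Pearson's r of log2(CPM + 1) over 55 groups of class, region and stage with at least 20 cells, among 8665 genes. Ces2f, a carboxylesterase, had the highest median r at 0.77, followed by Muc15, a membrane mucin, at 0.76 and Lypd3, Krt4 and Tmprss11d at 0.75. Krt13, Casp14, Pinlyp, Spink5 and Ly6d followed at 0.73 to 0.74. The groups share 1 run and fall mainly into squamous and other classes, and r is given as a description. Spink5, a protease inhibitor of the upper layers, was at 1112 CPM in the adult esophagus, 1704 in the adult GE-SCJ and 41.0 in the E19 esophagus.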

How the data were processed

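The authors made the UMI counts per gene and cell with Cell Ranger 6.1.1 on the mouse build mm10, assigned cells to region and stage by CellPlex tag, removed barcodes by thresholds on genes, UMIs and mitochondrial share as potential doublets or low-quality cells, and deposited the counts without normalization. They also deposited the percent of mitochondrial UMIs and a class label per cell, which was used as given, and no doublet caller was run here. The 10 genes and all gene lists were chosen with earlier results of these data known. UMIs were summed per label, region and stage and divided by the group's total (470147 to 3209407 UMIs for the 8 groups of the first label with at least 20 cells). Intervals were exact 95% Poisson or, for ratios, exact conditional ones, a sum of 0 was given its limit at 3 counts, and mice cannot be told apart, so no test was made. Ratios had 1 UMI added to each sum and were counted from 4-fold on where a gene had 50 or more UMIs across both groups, a step tested on simulated data. The simulated sums were Poisson draws without single cells, so the effect of a few rich cells was not tested there. A gene scarce in 1 group passed the minimum of 50 UMIs only through the other group, a rule that held for all genes. All 10 genes are named, and of the other lists the genes with the highest CPM or past 4-fold in a comparison described, and the 10 genes with the highest median Pearson's r to the 10. The 4 bins were ranked by 11 basal adhesion genes. Gene positions came from the GRCm38 annotation and promoter letters from RefSeq. The tools were matplotlib 3.10.9, pandas 2.3.3, scipy 1.17.1 and numpy 2.4.6 under Python 3.11.15. Other thresholds, floors, thinning depths, layer rankings, cell filters and a mean over cells were tried as alternatives.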

Additional observations from a re-analysis of the deposited data

Results flagged for a closer look

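Between E19 and pup, Krtdap and Cnfn took opposite directions in the 2 regions. Krtdap had a log2 ratio of -3.06 in the esophagus and 3.51 in the GE-SCJ, and Cnfn had -1.76 and 3.45. Each region and stage is 1 pooled sample, so the difference between the regions was not tested. The Cnfn value of the GE-SCJ came mostly from 1 pup cell, and was -0.26 without the top cell of each group.

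Some of the genes had signal outside the squamous cells, above the immune cells. Sprr1a, at 2.66 CPM in immune cells, was at 47.6 CPM (36.6 to 60.9) in the columnar epithelium of the GE-SCJ at E15, with 33 of 63 UMIs in 1 cell, at 85.7 (79.1 to 92.8) in that of the GE-SCJ at E19, in 106 of 274 cells, at 51.8 (44.9 to 59.5) in that of the stomach at E15 and at 107 (100.2 to 113) in that of the stomach at E19, in 114 of 366 cells. Sbsn, at 13 CPM in immune cells, was at 115 CPM (87.5 to 148) in the second stromal label of the GE-SCJ at E19, in 27 of 46 cells, and at 438 CPM (350.4 to 541) in that of the pup stomach, in 25 of 27 cells. Over all 139 cells of that label, Lgals7 was at 293 CPM (265 to 324) in 82 cells, against 86.6 CPM in immune cells. Lor was at 46.2 CPM (35.4 to 59.2) there in 27 cells, against 12.5 CPM.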

How the results depend on the processing

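Counts of genes past 4-fold moved under several settings. With the mean of the single cells' CPM they moved from 6 to 2 for E19 over E15 in the esophagus, from 1 to 6 for the GE-SCJ over the esophagus at E15 and from 2 to 1 at E19. There the minimum of 50 UMIs was applied to that mean scaled to the group total, so genes with fewer UMIs could be counted. Without the 1% of cells highest in each gene, the region counts became 0 at E15, 4 at E19 and 2 of a former 5 in pups. At a minimum of 200 UMIs they became 1 for E19 over E15 in the GE-SCJ, 0 for the regions at E15 and 2 in pups, and for the other envelope genes 6 of a former 10 for adult over E19 in the GE-SCJ and 4 of a former 7 between the squamous labels, which became 14 without a minimum. At 2-fold they were 7 (from 4) for pup over E19 in the esophagus and 3, 5 and 2 for the regions at E15, E19 and adult. At 8-fold they were 2 (from 6) for E19 over E15 in the esophagus, 1 in the GE-SCJ, 0 and 1 for the regions at E15 and E19 and 1 between the labels. In alternatives added after the data were seen, 2 genes passed between the adult regions in the bin of cells highest in basal genes, and 2 of a former 9 passed for adult over pup esophagus with that bin in place of all adult cells. The cause of these moves was not tested. Among ratios past 4-fold, directions turned with the mean over cells for Sprr3 (-0.43) and Cnfn (-0.86) from E15 to E19 in the esophagus. With that mean Cnfn also turned between regions in pups (-0.53). Without the top 1% of cells, directions turned for Cnfn (-0.26) from E19 to pup in the GE-SCJ and Sprr3 (-0.15) between regions in pups. With E19 cells ranked by basal keratins instead, the log2 ratios of the last to the first bin were -2.34 for Sprr1a, -2.75 for Sprr3, -0.82 for Sbsn, -3.97 for Cnfn, -0.41 for Tgm1, -1.05 for Tgm3 and 2.71 for Lgals7, so the E19 course rests on the adhesion genes, and for Lgals7 it was 0.46 with thinned cells. Of 930 log2 ratios under the alternatives, 766 moved by no more than counting error, 159 moved further and 5 past 4-fold changed sign. A change of sign in a ratio within 4-fold was counted among the 766 or the 159. Of 720 levels in CPM, 481 moved by no more than counting error. No paired analysis was possible because mice were pooled and no sample carries a replicate number.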
